A study of Mus musculus with 21 samples.

Results

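The genes described here are the proteasome subunit genes of the mouse, taken as every row of the deposited count table whose symbol is Psma, Psmb, Psmc, Psmd, Psme, Psmf or Psmg followed only by a number. There were 48 such genes among the 39396 genes of the table. By role they are 8 alpha ring genes, 7 beta ring genes, 3 immunoproteasome genes, 1 thymus-specific gene, 6 base ATPase genes, 14 other cap genes, 4 activator genes, 1 inhibitor gene and 4 assembly chaperone genes. All 48 had at least 1 count, and 47 were among the 16575 genes that passed a filter on low counts and were tested. Psmb11 was the member left out by that filter.

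RNA was sequenced from mouse embryonic stem cells at 4 stages of pluripotency in the lines A2 and D3, with 3 libraries in each of 7 groups and 21 libraries in all. Ground-state cells of both lines were cultured in DMEM with 10% FBS, 1000 U/mL LIF and 2i, a pair of kinase inhibitors against MEK and GSK3. Naive cells of both lines had 1000 U/mL LIF in the same medium after removal of 2i for 4 days. Early primitive ectoderm-like (EPL) cells of both lines had 330 U/mL LIF and 400 µM L-proline in DMEM with 10% FBS for 4 days. Penicillin, streptomycin and beta-mercaptoethanol were common to these media. Epiblast stem cells (EpiSC) came from A2 only: A2 cells were implanted into a pseudopregnant mouse, recovered after implantation and kept in KO DMEM with KOSR, Activin A and bFGF. EpiSC libraries therefore differ from the other A2 libraries in origin, medium and time in culture at once, and the parts of these cannot be told apart. No sample carried a stated genetic change. The labels do not say whether the 3 libraries of a group came from separate cultures, so the p-values measure the spread between these libraries, which may be technical.

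The proteasome is the protease that degrades proteins tagged with ubiquitin. Its core particle is a barrel of alpha and beta subunits whose beta subunits Psmb5, Psmb6 and Psmb7 carry the catalytic sites; a cap of ATPases and other subunits recognises, unfolds and feeds in the substrate. Immune signals replace the catalytic subunits with Psmb8, Psmb9 and Psmb10, which changes the peptides offered to MHC class I molecules, and separate activators such as PA28 and PA200 can dock in place of the cap. Embryonic stem cells are known for high proteasome activity and for very low MHC class I on their surface.

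Library totals lay between 15320599 and 23490527 counts. Levels are given as CPM, read counts brought to a common library size with TMM factors, and differences as log2 changes ± standard error from edgeR's quasi-likelihood fit, called at an adjusted p below 0.05 over all 16575 genes. Between EPL and ground-state cells the stage markers followed the labels in their direction: all 6 naive markers were lower in EPL than in ground-state cells, and all 5 formative markers were higher. A pair of facts about single groups touch several results. First, naive D3 replicate 2 stood apart, with 1.03% of its counts in the 48 genes, against 0.713 to 0.891% in every other library. Second, all 10 fibroblast markers tested, such as collagen genes, were higher in EpiSC, where they summed to 2136 to 2691 CPM with none at 0, against 5.83 to 15.6 CPM in every other library. Of 5 tested markers of primed cells, 4 were higher and 1 lower in EpiSC than in ground-state A2 cells. The 6 naive markers summed to 1041 to 1319 CPM in EpiSC, against 5757 to 6134 CPM in ground-state A2 cells. The 5 formative markers summed to 180 to 198 CPM in EpiSC, near the 165 to 182 CPM of ground-state A2 cells. In A2 EPL cells the formative sum was 869 to 1006 CPM. Both shared pluripotency markers were lower in EpiSC than in ground-state A2 cells. In bulk RNA, fewer cells of a type and less RNA per cell cannot be told apart.

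**Figure D1:**
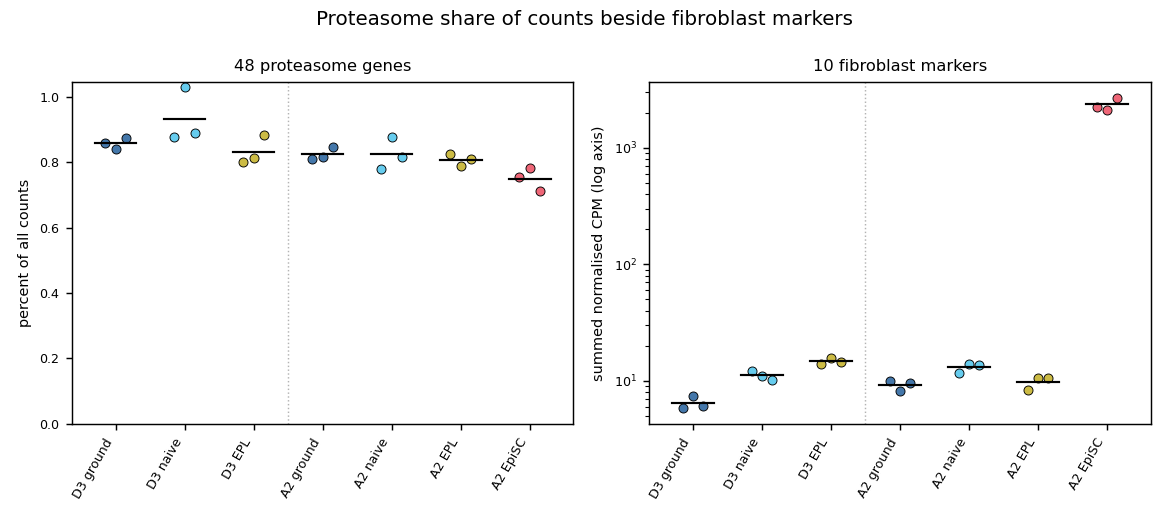
Percent of each library's counts in the 48 proteasome genes (left) and summed CPM of 10 fibroblast markers on a log axis (right), with 1 point per library in the 7 groups. Naive D3 replicate 2 is the highest point on the left at 1.03%, and the 3 EpiSC libraries are the only ones on the right above 15.6 CPM, at 2136 CPM or more.

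The sequence before the RefSeq start of Psmb8, Psmb9, Psmb10 and Psmb5 is shown first. These genes belong to the exchangeable pairs Psmb8 and Psmb5, Psmb9 and Psmb6, and Psmb10 and Psmb7. The Psmb6 window is not printed. Whether the sequence bears on the levels that follow was not tested. Each line gives the 250 bases before the RefSeq start of the gene in build GRCm38.p6, read 5′ to 3′ on the strand of the gene: Psmb8 at chr17:34197945-34198194 on the plus strand, Psmb9 at chr17:34187331-34187580, Psmb10 at chr8:105938393-105938642 and Psmb5 at chr14:54617996-54618245 on the minus strand. The Psmb8 and Psmb9 windows lie inside the longer bounds that GENCODE M21 gives these genes, chr17:34197721-34201454 and chr17:34181987-34187764. Sequence before those longer starts is not shown. Capitals mark a match to the antioxidant response core TGACNNNGC in Psmb5 and a reversed CCAAT box in Psmb9. The GC box GGGCGG, also found in the Psmb9 window, is not marked.
Psmb8: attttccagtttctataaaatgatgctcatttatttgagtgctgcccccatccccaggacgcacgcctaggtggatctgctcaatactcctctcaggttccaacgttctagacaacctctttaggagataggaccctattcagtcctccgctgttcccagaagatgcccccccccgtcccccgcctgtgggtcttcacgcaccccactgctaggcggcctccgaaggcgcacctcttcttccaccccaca
Psmb9: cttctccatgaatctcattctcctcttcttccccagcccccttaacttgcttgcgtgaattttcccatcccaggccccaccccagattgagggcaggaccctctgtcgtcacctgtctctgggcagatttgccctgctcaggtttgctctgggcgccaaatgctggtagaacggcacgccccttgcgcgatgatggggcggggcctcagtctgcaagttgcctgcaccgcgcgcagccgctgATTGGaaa
Psmb10: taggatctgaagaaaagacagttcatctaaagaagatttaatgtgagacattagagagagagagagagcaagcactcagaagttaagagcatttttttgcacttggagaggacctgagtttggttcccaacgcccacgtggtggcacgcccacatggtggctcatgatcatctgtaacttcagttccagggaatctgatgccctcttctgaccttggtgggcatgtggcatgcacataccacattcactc
Psmb5: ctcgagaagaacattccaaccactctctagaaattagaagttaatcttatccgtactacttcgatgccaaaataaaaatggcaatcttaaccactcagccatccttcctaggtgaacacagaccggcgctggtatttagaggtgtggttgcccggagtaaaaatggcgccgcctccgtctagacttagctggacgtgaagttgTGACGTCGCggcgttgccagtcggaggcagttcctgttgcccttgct

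Windows of this kind were at hand for 40 of the 48 genes. A member was counted if any of its windows held a match, and 3 of the 40 had 2 windows. The shares over all genes count single windows instead. The antioxidant response core, the element read by Nfe2l1 and Nfe2l2, was searched as TGACNNNGC on both strands and was found before 5 of the 40 genes, Psmb5, Psmb6, Psmc6, Psmd9 and Psmd12, against 10.2% of 32851 windows of all genes. The pair of GAAA repeats read by interferon regulatory factors, searched on both strands as GAAA followed after any 2 bases by GAAA, was found before Psmb3, Psmd4 and Psmd9, against 2.98% of all windows. Neither was found in the windows of Psmb8, Psmb9 or Psmb10. Sequence before the GENCODE starts of Psmb8 and Psmb9 was not searched for these genes. CCAAT was found before 14 of the 40 genes, against 33.8% of all windows, and the GC box GGGCGG before 22 of the 40, against 32.7%. The windows of the proteasome genes held a median of 14 CpG dinucleotides, against 6 over all windows, while the Psmb10 window held 3. These matches describe the letters of the windows and say nothing of binding.

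The constitutive particle, meaning the 7 alpha, 7 beta, 6 ATPase and 11 cap subunits found in the standard proteasome, spanned a narrower range over the groups than most genes. Its 31 genes each spanned 0.31 to 0.86 on the log2 scale between the highest and the lowest of the 7 group means, with a median span of 0.63, against a median of 1.18 over all genes tested. Per length, the highest level in ground-state A2 cells was that of Psma6, an alpha subunit, with 198 ± 16 CPM per kb of exon (SD, n = 3), followed by the base ATPase Psmc5 with 188 ± 7.4 and the large cap scaffold Psmd2 with 158 ± 10 CPM per kb. This order depends on the length used, all annotated exons, which is 1234 bases for Psma6, 1394 for Psmc5 and 4038 for Psmd2. In plain mean CPM the same cells had 636 of Psmd2, 261 of Psmc5 and 245 of Psma6. The catalytic subunits had 143 ± 1.9 CPM per kb for Psmb6, 122 ± 7.4 for Psmb5 and 69.6 ± 2.5 for Psmb7. Psmd9 and Psmd10, which act as chaperones in base assembly, were low at 3.76 ± 0.29 and 13.9 ± 2.2 CPM per kb.

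Between naive and ground-state cells, 18 of the 47 members were called higher and 8 lower, with a median log2 change of 0.06. Among all genes tested, 31.7% were called higher and 31.8% lower, and their median change was 0.01. Within the constitutive particle 9 genes were higher, 4 lower and 18 not called, so no common direction was measured. Psma7, an alpha subunit, had 217, 318 and 264 CPM in naive D3 and 223, 288 and 253 CPM in naive A2 cells, against 170, 173 and 190 CPM in ground-state D3 and 199, 220 and 203 CPM in ground-state A2 cells. Every naive library was above every ground-state library of the same line, a log2 change of 0.44 ± 0.08 (edgeR adjusted p = 7.59e-05). Psmd2 had 609, 591 and 577 CPM in naive D3 and 512, 513 and 494 CPM in naive A2 cells, against 710, 680 and 677 CPM in ground-state D3 and 659, 588 and 661 CPM in ground-state A2 cells. It was lower in every naive library of each line, by a log2 change of -0.27 ± 0.04 (edgeR adjusted p = 4.05e-06). Without naive D3 replicate 2 the counts were 13 higher and 11 lower, and without naive D3 replicate 1 the lower count was 5.

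EPL cells had a mixed pattern against ground-state cells, with 13 of 47 members higher and 15 lower and a median of -0.04, where 33.1% of all genes were higher and 33.2% lower. Of the constitutive particle 4 genes were higher and 12 lower. Psmc2, an ATPase of the base, had 151, 160 and 166 CPM in D3 EPL and 166, 162 and 161 CPM in A2 EPL cells, against 223, 220 and 234 CPM in ground-state D3 and 216, 205 and 227 CPM in ground-state A2 cells. The groups did not overlap in either line, and the log2 change was -0.46 ± 0.06 (edgeR adjusted p = 2.71e-07). The cap subunit Psmd3 was lower by a log2 change of -0.43 ± 0.05 (edgeR adjusted p = 9.37e-08), with 265, 263 and 270 CPM in D3 EPL and 290, 292 and 300 CPM in A2 EPL cells, against 356 to 402 CPM in the 6 ground-state libraries. Against naive cells, 6 members were higher and 15 lower in EPL cells, where 27.1% of all genes were higher and 24.1% lower. None of the 31 constitutive genes was called higher in this comparison and 12 were called lower, by edgeR. Psmb2, a non-catalytic beta subunit, had 105, 106 and 124 CPM in D3 EPL and 111, 102 and 105 CPM in A2 EPL cells, against 149, 192 and 158 CPM in naive D3 and 131, 154 and 143 CPM in naive A2 cells. This was the largest fall among the members in that comparison, with no overlap in either line, at -0.50 ± 0.07 (edgeR adjusted p = 2.83e-06). Psmd5, a chaperone of base assembly, was lower by -0.43 ± 0.05 (edgeR adjusted p = 4.82e-07). By line, 5 members were lower in A2 and 22 in D3 EPL cells against naive cells of the same line, where 16.1% of all genes were lower in A2 and 20.4% in D3. In A2 the members' median was 0.03, with 27 above 0 and 20 below. The constitutive genes Psma1 (0.33, edgeR adjusted p = 0.0101) and Psmd7 (0.22, edgeR adjusted p = 0.0390) were called higher there. In D3 the median was -0.20, with 8 above 0 and 39 below. Over both lines the median was -0.07, and -0.04 without naive D3 replicate 2.

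Most genes of the standard particle were lower in EpiSC. Against ground-state A2 cells, 6 of 47 members were called higher and 31 lower, with a median log2 change of -0.35, where 39.1% of all genes were higher and 34.1% lower. Against naive A2 cells the counts were again 6 higher and 31 lower, with 39.1% of all genes higher and 31.2% lower. Against A2 EPL cells 4 members were higher and 30 lower, with 39.1% of all genes higher and 31.3% lower. These comparisons share the EpiSC libraries, so the counts are not independent of each other. Of the 31 constitutive genes, 27 were lower than in ground-state cells with a median of -0.42, and Psmd7 alone was higher. By class, 5 of 8 alpha, 6 of 7 beta, all 6 ATPase and 11 of 14 other cap genes were lower.

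The beta subunit Psmb3 had 161, 166 and 143 CPM in EpiSC, against 276, 283 and 292 CPM in ground-state A2 cells, 241, 292 and 237 CPM in naive A2 cells and 239, 227 and 246 CPM in A2 EPL cells. The 3 EpiSC libraries were the lowest of the 21, and the log2 change against ground-state cells was -0.86 ± 0.10 (edgeR adjusted p = 1.24e-07). The lid subunit Psmd12 had 141, 153 and 136 CPM in EpiSC, against 223, 222 and 242 CPM in ground-state A2 cells, with a change of -0.68 ± 0.07 (edgeR adjusted p = 4.67e-09). Psmd1, the other large scaffold of the base, had 294, 287 and 280 CPM in EpiSC, against 445, 411 and 453 CPM in ground-state A2 cells, with a change of -0.61 ± 0.06 (edgeR adjusted p = 1.88e-09). For both genes EpiSC and ground-state libraries did not overlap. Psmc4, an ATPase of the base, had 186, 182 and 165 CPM in EpiSC, against 282, 262 and 274 CPM in A2 EPL cells, the largest fall of a constitutive subunit in that comparison after the catalytic Psmb5. Psmb5 had 91.8, 97 and 73.2 CPM in EpiSC, against 148, 123 and 135 CPM in A2 EPL cells, a log2 change of -0.63 ± 0.12 (edgeR adjusted p = 7.50e-05).

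The size of the EpiSC fall depends on how the libraries are scaled, since TMM factors were 1.136 to 1.145 in EpiSC and 0.9326 to 1.007 elsewhere. Scaling by total counts moved the median of all genes against ground-state cells to 0.30 (0.04 under TMM) and the members' median to -0.08. Relative to all genes the members' median was -0.39 under both scalings. Scaling moves all genes by nearly the same amount, so this value could hardly change and is no check of the fall. With total-count scaling 10 members were higher and 14 lower than in ground-state A2 cells, where 50.0% of all genes were higher and 22.1% lower. Psmb3 kept a change of -0.59 (edgeR adjusted p = 1.21e-05), whereas Psmb5 had -0.07 and Psmb6 -0.22, and neither of these passed the threshold (edgeR adjusted p = 0.618 and 0.0507). All 10 fibroblast markers were higher in the same EpiSC libraries. All 5 primitive endoderm markers were also higher, summing to 891 to 1201 CPM in EpiSC, against 349 to 381 CPM in ground-state A2 cells, with none at 0 in either group. The part of either list in these differences was not tested.

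**Figure D2:**
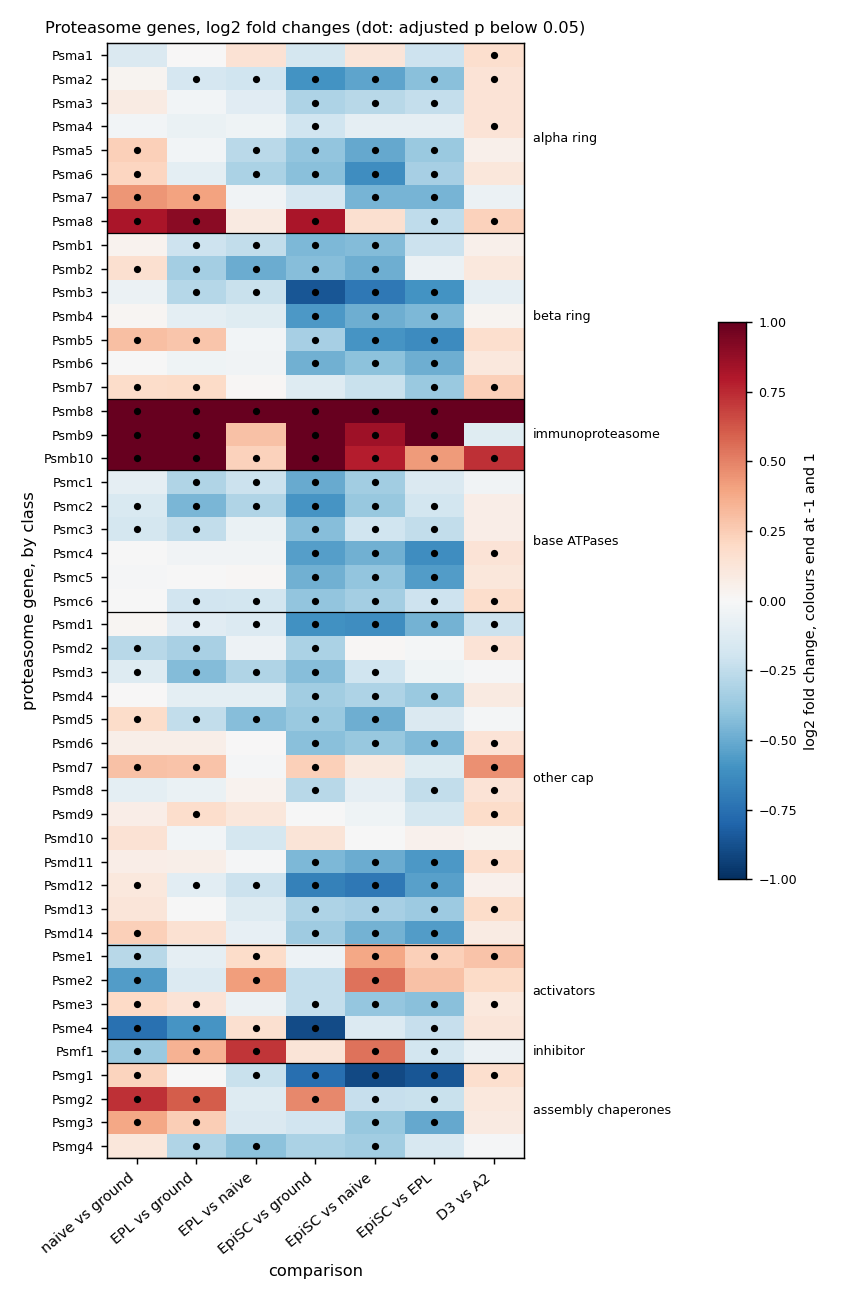
Heat map of log2 changes of the 47 tested members (rows, by class) in 7 comparisons (columns), with colours held at -1 and 1 and a dot where the adjusted p was below 0.05. The 3 EpiSC columns are mostly below 0 for the constitutive classes, with 27, 25 and 23 of 31 constitutive genes lower against ground-state, naive and EPL cells, while Psmb8, Psmb9 and Psmb10 are above 0 in them.

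The immunoproteasome subunits Psmb8, Psmb9 and Psmb10 were the members with the widest spans over the groups, at 5.86, 3.11 and 2.05 on the log2 scale. Psmb9 and Psmb10 were called higher in naive, EPL and EpiSC than in ground-state cells, and both were higher in EpiSC than in naive and in EPL cells of A2. Psmb8 was called in the same comparisons, but it passed the filter on low counts only through D3 EPL and A2 EpiSC, so it had to differ from the groups where it was low and is described by its counts. They differed in level by orders of magnitude: in ground-state A2 cells Psmb10 stood at 6.67 ± 0.80, Psmb9 at 0.181 ± 0.023 and Psmb8 at 0.00545 ± 0.0094 CPM per kb (SD, n = 3).

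Psmb8, the chymotrypsin-like subunit that takes the place of Psmb5, was almost without counts in ground-state cells. It had 1, 0 and 0 counts in the 3 ground-state D3 libraries and 0, 1 and 0 in the 3 ground-state A2 libraries. Naive cells had 9, 10 and 2 counts in D3 and 3, 2 and 6 in A2, and EPL cells had 31, 39 and 39 in D3 and 14, 9 and 1 in A2. EpiSC had 145, 133 and 208 counts, above every other library. Summed over 3 libraries and scaled by library size, EpiSC had 393 times the counts of ground-state A2 cells, with a 95% interval of 70.2 to 15545 that covers counting error only and is wide because the ground-state sum is 1 count. EpiSC had 14.6 times the counts of A2 EPL cells (interval 9.69 to 23). D3 EPL cells had 4.85 times the counts of naive D3 cells (interval 3.02 to 8.15) and 4.07 times those of A2 EPL cells (interval 2.60 to 6.63). A2 alone gave no call for naive against ground-state cells (edgeR adjusted p = 0.0511) or for EPL against naive cells (edgeR adjusted p = 0.157). Psmb8 shares 14.73% of its exonic bases with the overlapping gene Gm20496.

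Psmb9, which takes the place of the caspase-like subunit Psmb6, was low but present in every group. Psmb9 had 0.405, 0.325 and 0.274 CPM in ground-state, 1.03, 2.22 and 1.99 CPM in naive and 3.57, 2.91 and 2.74 CPM in EPL cells of D3. In A2 it had 0.567, 0.718 and 0.707 CPM in ground-state, 1.79, 2.06 and 2.19 CPM in naive, 1.95, 1.73 and 1.57 CPM in EPL and 3.81, 3.48 and 3.63 CPM in EpiSC cells. Ground-state libraries were the lowest of their line, and in A2 the naive and EPL libraries overlapped while EpiSC stood above both. The log2 change against ground-state cells was 1.98 ± 0.20 in naive, 2.28 ± 0.19 in EPL and 2.45 ± 0.24 in EpiSC cells, each called. Averaged over the lines, EPL against naive cells gave no call (0.30 ± 0.16, edgeR adjusted p = 0.118). In D3 alone EPL cells were higher, by 0.80 ± 0.21 (edgeR adjusted p = 0.00420), and A2 alone gave -0.21 ± 0.22 (edgeR adjusted p = 0.521).

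The course of Psmb9 differed between the lines. EPL cells exceeded ground-state cells by 3.16 ± 0.28 in D3 (edgeR adjusted p = 1.41e-09) and by 1.40 ± 0.27 in A2 (edgeR adjusted p = 0.000121). The difference of these differences was 1.76 ± 0.41 (edgeR adjusted p = 0.00538). In EPL cells each D3 value lay above each A2 value, and in ground-state cells each D3 value lay under each A2 value. The ground-state values rest on 8, 7 and 5 counts in D3 and 12, 13 and 13 in A2. No ground-state D3 library was over the cutoff of the filter on low counts, so the size of the line difference depends on low counts. Psmb9 overlaps its neighbour Tap1 by 212 exonic bases, 5.79% of its own exons.

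Psmb10, which replaces the trypsin-like subunit Psmb7, was the most abundant of the 3 per length in every group. In D3 it had 14.4, 14.9 and 16.5 CPM in ground-state, 35, 55.8 and 42.1 CPM in naive and 43.7, 45.6 and 53.0 CPM in EPL cells. In A2 it had 10.2, 11 and 12.9 CPM in ground-state, 19.5, 23.7 and 22.7 CPM in naive, 31.5, 27.3 and 26.1 CPM in EPL and 38.5, 33.2 and 42.4 CPM in EpiSC cells. In A2 each stage lay above the one before without overlap, and in D3 naive and EPL overlapped. Naive cells exceeded ground-state cells by 1.25 ± 0.10 (edgeR adjusted p = 3.78e-10) and EPL cells by 1.48 ± 0.10 (edgeR adjusted p = 1.35e-11). EPL against naive cells gave 0.23 ± 0.10, on the edge of the threshold (edgeR adjusted p = 0.0486) and past it in 9 of 30 alternative settings. EpiSC exceeded A2 EPL cells by 0.43 ± 0.14 (edgeR adjusted p = 0.00775), a call that was lost without EpiSC replicate 3 (0.33, edgeR adjusted p = 0.0517).

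**Figure D3:**
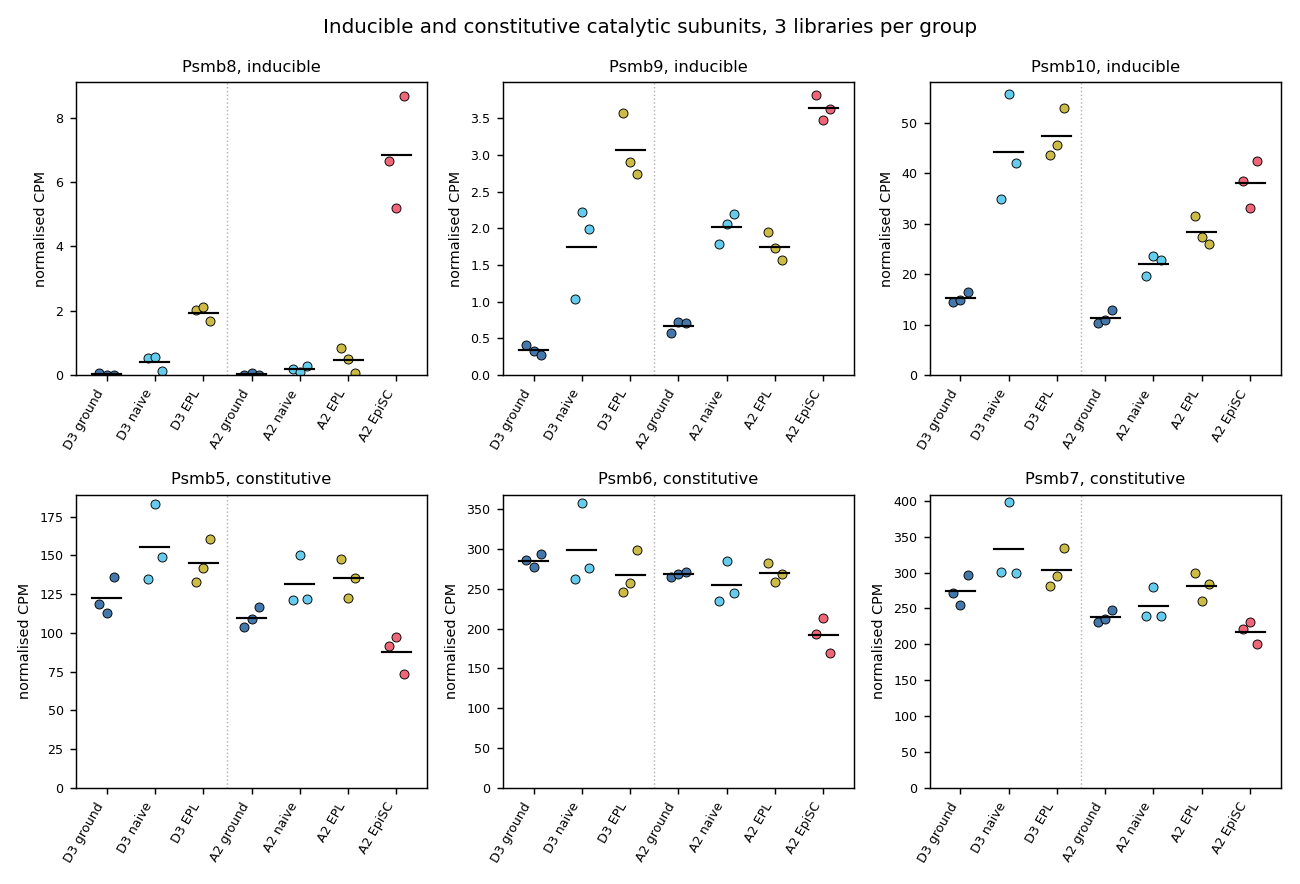
CPM per library of the immunoproteasome subunits Psmb8, Psmb9 and Psmb10 (top) and their standard counterparts Psmb5, Psmb6 and Psmb7 (bottom) in the 7 groups, with a bar at each group mean. The inducible genes have their lowest mean in ground-state cells of each line, with Psmb10 between 33.2 and 42.4 CPM in EpiSC and between 10.2 and 12.9 CPM in ground-state A2 cells, while the standard genes stay within narrower bands and are lowest or near lowest in EpiSC.

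The standard counterparts changed by smaller amounts. Psmb5 was higher in naive and in EPL than in ground-state cells, by 0.30 ± 0.08 (edgeR adjusted p = 0.00347) and 0.27 ± 0.08 (edgeR adjusted p = 0.00686). Psmb7 was higher by 0.18 ± 0.07 and 0.19 ± 0.07 in the same comparisons (edgeR adjusted p = 0.0284 and 0.0199). Psmb6 was called in neither, at -0.00 ± 0.07 and -0.04 ± 0.07. Psmb6 had 194, 214 and 169 CPM in EpiSC, against 265, 269 and 272 CPM in ground-state A2 cells. Psmb7 had 221, 231 and 200 CPM in EpiSC, against 231, 235 and 248 CPM in ground-state A2 cells, and was not called (edgeR adjusted p = 0.240).

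As levels per length, Psmb8 and Psmb9 remained a small part of their pairs, and Psmb10 a larger part. The length counts all annotated exons, 3381 bases for Psmb8 and 899 for Psmb5. It is 3660 for Psmb9 and 1872 for Psmb6, and 1705 for Psmb10 and 3421 for Psmb7. This choice lowers the ratios of Psmb8 and Psmb9 and raises that of Psmb10. In plain mean CPM, EpiSC had 6.84 of Psmb8 against 87.3 of Psmb5, and 38.0 of Psmb10 against 217 of Psmb7. The ratios that follow are per length. Psmb10 stood at 9.55 ± 0.80% of Psmb7 in ground-state A2, 17.5 ± 1.4% in naive A2, 20.2 ± 1.5% in A2 EPL and 35.4 ± 6.9% in EpiSC cells (SD, n = 3). In D3 the same ratio was 11.2 ± 0.55% in ground-state, 26.5 ± 2.8% in naive and 31.3 ± 0.51% in EPL cells. Psmb9 stood at 0.980 ± 0.13% of Psmb6 in EpiSC and at 0.126 ± 0.015% in ground-state A2 cells. Psmb8 reached 2.17 ± 0.89% of Psmb5 in EpiSC and 0.358 ± 0.070% in D3 EPL cells, and was at or under 0.149% in every library of the other groups. In EpiSC the largest Psmb8 ratio, 3.15% in replicate 3, stood beside the highest fibroblast marker sum, 2691 CPM, while replicates 1 and 2 had 1.93 and 1.43% beside 2267 and 2136 CPM; the part of these markers was not tested. Of 6 tested leukocyte markers 3 were higher and 2 lower in EpiSC than in ground-state A2 cells; the 9 listed summed to 125 to 141 CPM in EpiSC, against 349 to 386 CPM in ground-state A2 cells, with none at 0 in either group, and their part was not tested.

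**Figure D4:**
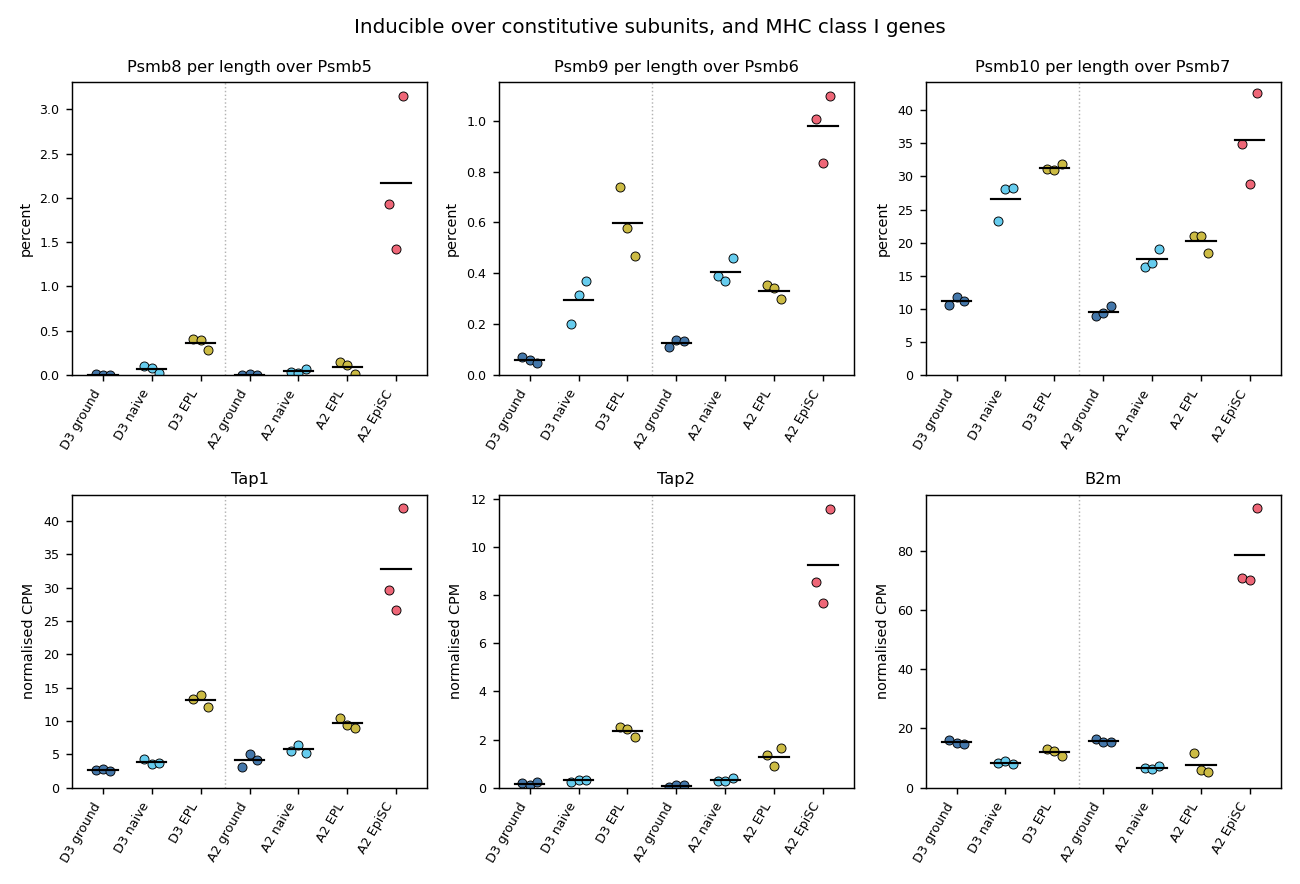
Ratios per exon length, in percent, of Psmb8 to Psmb5, Psmb9 to Psmb6 and Psmb10 to Psmb7 (top) and CPM of Tap1, Tap2 and B2m (bottom), with 1 point per library. Psmb10 reaches 42.5% of Psmb7 in 1 EpiSC library, and B2m is below its ground-state level in naive cells but highest in EpiSC.

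Psmb9 and Psmb8 lie in the MHC region of chromosome 17 among the genes of the peptide transporter. In GRCm38 the order is Psmb9 at chr17:34181987-34187764 on the minus strand, Tap1 at chr17:34187553-34197225, Psmb8 at chr17:34197721-34201454 and Tap2 at chr17:34203527-34216321, all 3 on the plus strand. Tap1, one chain of the transporter that brings peptides into the endoplasmic reticulum, had 29.7, 26.6 and 41.9 CPM in EpiSC, against 10.5, 9.44 and 8.99 CPM in A2 EPL and 3.07, 5.03 and 4.19 CPM in ground-state A2 cells. Tap2, its partner, had 8.55, 7.67 and 11.6 CPM in EpiSC, against 1.36, 0.893 and 1.63 CPM in A2 EPL and 0.0473, 0.111 and 0.109 CPM in ground-state A2 cells. For both neighbours the 3 groups did not overlap. Tap1 shared with Psmb9 a larger EPL change in D3 than in A2 (difference 1.04 ± 0.26, edgeR adjusted p = 0.00798), whereas Tap2 did not pass that test (-0.05 ± 0.38, edgeR adjusted p = 0.968). The ground-state A2 values of Tap2 were under the 0.522 CPM cutoff of the filter on low counts. The Tap2 test therefore rests on a level near 0 and does not show that the lines changed alike.

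Of 11 listed genes of MHC class I antigen processing, 5 were higher and 5 lower in naive than in ground-state cells, with a median of 0.02, where 31.7% of all genes were higher and 31.8% lower. In EPL cells 6 were higher and 4 lower (33.1% and 33.2% of all genes), and in EpiSC 9 were called higher and 0 lower by edgeR than in ground-state A2 cells (39.1% and 34.1% of all genes). B2m, the invariant chain of class I molecules, had 8.23, 8.98 and 8.14 CPM in naive D3 and 6.57, 6.47 and 7.26 CPM in naive A2 cells, against 16.1, 15.2 and 14.8 CPM in ground-state D3 and 16.6, 15.6 and 15.3 CPM in ground-state A2 cells. B2m therefore fell in naive cells, by -1.04 ± 0.13 (edgeR adjusted p = 3.31e-07), where Psmb9 and Psmb10 rose, and it was higher in EpiSC by 2.31 ± 0.16 (edgeR adjusted p = 2.78e-11). Tapbp, the chaperone that loads peptides on class I molecules, was likewise lower in naive cells at -1.0 ± 0.08 (edgeR adjusted p = 6.09e-10). Nlrc5, a transactivator of class I genes, was higher in naive cells by 1.94 ± 0.33 (edgeR adjusted p = 2.49e-05) and in EPL cells by 2.54 ± 0.32 (edgeR adjusted p = 2.70e-07). Its EPL change was also larger in D3 than in A2, by 3.05 ± 0.68 (edgeR adjusted p = 0.00365).

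Of 12 tested genes of the interferon response, 3 were higher and 5 lower in naive, and 5 higher and 5 lower in EPL, than in ground-state cells. In EpiSC 6 were higher and 4 lower than in ground-state A2 cells. These counts stand beside 31.7% of all genes higher and 31.8% lower in naive, 33.1% and 33.2% in EPL and 39.1% and 34.1% in EpiSC cells. Irf1, a transcription factor that acts on the immunoproteasome genes, was lower in naive cells by -0.87 ± 0.07 (edgeR adjusted p = 7.95e-10), higher in EPL cells by 0.43 ± 0.07 (edgeR adjusted p = 1.37e-05) and not called in EpiSC (0.02 ± 0.10, edgeR adjusted p = 0.863). The guanylate-binding protein Gbp2 was higher in naive, EPL and EpiSC cells by fitted changes of 4.03 ± 0.60, 5.71 ± 0.47 and 9.43 ± 0.43. The 13 listed interferon genes summed to at most 340 CPM in EpiSC, so the ground-state level of Gbp2 was near 0. Its changes are therefore fitted values and not measured folds.

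The activators moved in different directions. Psme4, also called PA200, a single large protein that caps the core without ATP, had the largest fall of any member against ground-state cells. It had 354, 283 and 336 CPM in naive D3 and 311, 298 and 311 CPM in naive A2 cells, against 580, 554 and 494 CPM in ground-state D3 and 530, 494 and 532 CPM in ground-state A2 cells. EPL cells had 389, 411 and 343 CPM in D3 and 324, 344 and 315 CPM in A2, and EpiSC had 258, 264 and 316 CPM. Every library of the later stages was below every ground-state library of either line. The changes were -0.75 ± 0.06 in naive (edgeR adjusted p = 7.55e-10), -0.59 ± 0.06 in EPL (edgeR adjusted p = 3.09e-08) and -0.89 ± 0.09 in EpiSC cells (edgeR adjusted p = 1.01e-08). EpiSC and A2 EPL cells differed by -0.23 ± 0.09 (edgeR adjusted p = 0.0275), and by -0.02 with total-count scaling (edgeR adjusted p = 0.831).

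Psme1 and Psme2 encode the subunits of PA28 alpha-beta, the activator induced together with the immunoproteasome. They did not rise with it in naive cells. Psme2 had 22.9, 34.1 and 20.9 CPM in naive D3 and 18.2, 27.5 and 20.5 CPM in naive A2 cells, against 30.2, 35.4 and 32.5 CPM in ground-state D3 and 36.7, 39.2 and 38.1 CPM in ground-state A2 cells. The A2 groups did not overlap and the D3 groups did, through naive replicate 2. Over both lines Psme2 was lower by -0.56 ± 0.10 (edgeR adjusted p = 7.70e-05) and Psme1 by -0.28 ± 0.07 (edgeR adjusted p = 0.00157), while D3 alone passed for neither (edgeR adjusted p = 0.0649 and 0.354).

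In EPL cells Psme2 differed between the lines. It had 35.6, 40.3 and 40.6 CPM in D3 EPL and 30.1, 24.3 and 24.8 CPM in A2 EPL cells, so the lines did not overlap. Against ground-state cells the change was 0.25 ± 0.14 in D3 (edgeR adjusted p = 0.148) and -0.53 ± 0.15 in A2 (edgeR adjusted p = 0.00443), and these differed by 0.78 ± 0.21 (edgeR adjusted p = 0.0141). Psme1 had 0.40 ± 0.14 in the same test and did not pass (edgeR adjusted p = 0.0647). Psme2b, a copy with 99.37% identity to Psme2 over 794 bases, had 34.5% as many counts as Psme2 and a line difference of 0.73 ± 0.19 (edgeR adjusted p = 0.0107), so reads of the pair could have been divided between the loci. In EpiSC Psme1 was higher than in naive A2 cells by 0.39 ± 0.10 (edgeR adjusted p = 0.00145) and Psme2 by 0.55 ± 0.15 (edgeR adjusted p = 0.00240). Against ground-state A2 cells neither was called, and under total-count scaling the Psme1 value was 0.21 (edgeR adjusted p = 0.0458), where TMM gave -0.05.

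Psme3, or PA28 gamma, a nuclear activator, changed little. It had 303, 291 and 299 CPM in naive D3 and 256, 270 and 252 CPM in naive A2 cells, against 250, 240 and 262 CPM in ground-state D3 and 234, 229 and 240 CPM in ground-state A2 cells, without overlap in either line (0.20 ± 0.04, edgeR adjusted p = 0.000135). EpiSC had 202, 201 and 191 CPM, below every other library, at -0.24 ± 0.06 against ground-state cells (edgeR adjusted p = 0.000492), a difference that was 0.02 with total-count scaling.

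Psmf1, or PI31, named as an inhibitor of the core particle, separated EPL from naive cells. It had 45.4, 46.5 and 42.8 CPM in D3 EPL and 46.5, 46.6 and 46.2 CPM in A2 EPL cells, against 27.6, 28.8 and 26.1 CPM in naive D3 and 26.9, 27.9 and 29.0 CPM in naive A2 cells. Ground-state cells lay between, with 32.3, 34.5 and 37.0 CPM in D3 and 37.1, 36.9 and 38.0 CPM in A2. The 3 stages did not overlap in either line. EPL exceeded naive cells by 0.72 ± 0.05 (edgeR adjusted p = 6.53e-11), naive cells were below ground-state cells by -0.37 ± 0.05 (edgeR adjusted p = 5.72e-07), and EPL cells were above them by 0.34 ± 0.05 (edgeR adjusted p = 1.12e-06). Neither line differed from the other in these changes at the threshold (edgeR adjusted p = 0.734 and 0.763). EpiSC had 41.6, 42.1 and 38.6 CPM, and the fall against A2 EPL cells of -0.19 ± 0.07 (edgeR adjusted p = 0.0160) was 0.02 with total-count scaling.

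**Figure D5:**
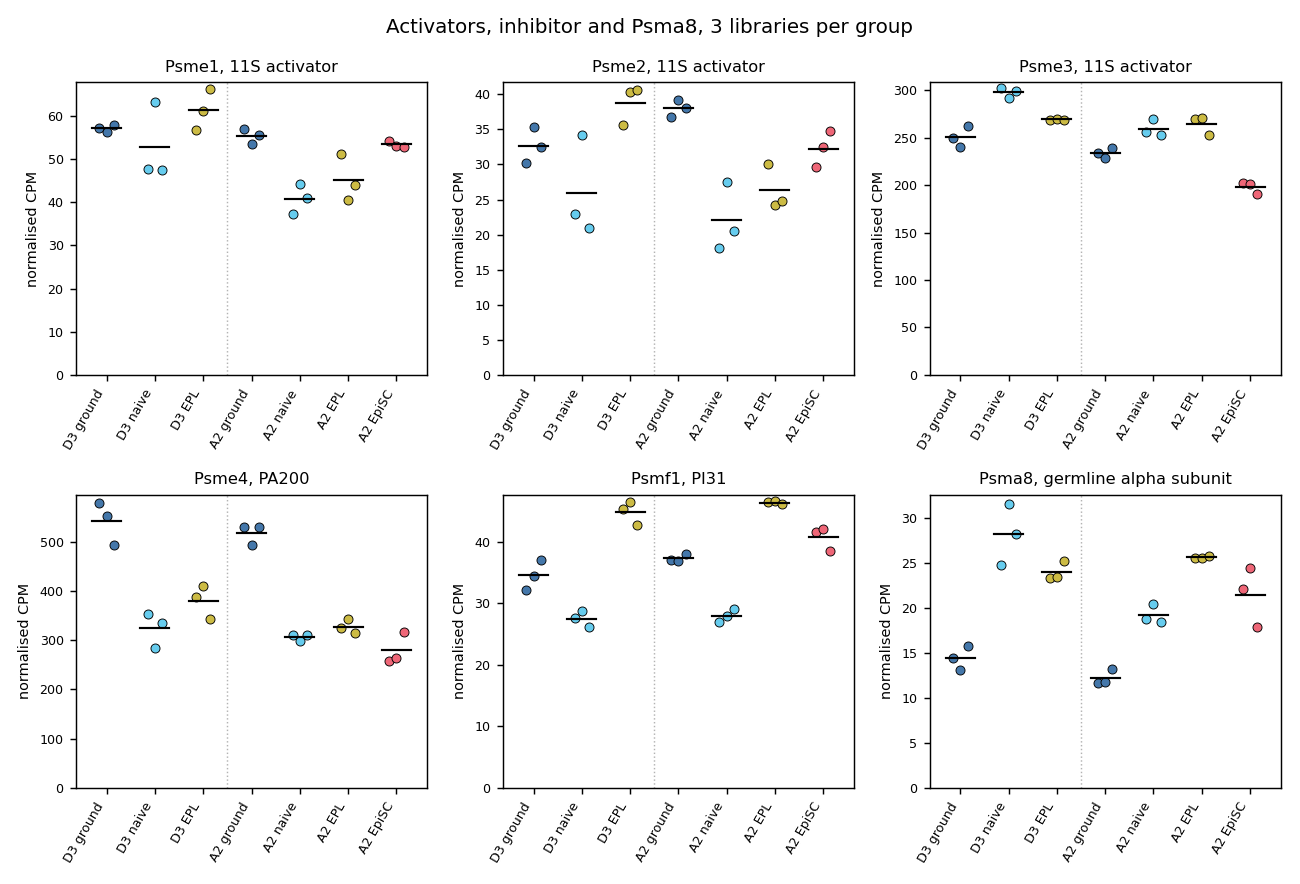
CPM per library of the activator genes Psme1 to Psme4, the inhibitor gene Psmf1 and the alternative alpha subunit gene Psma8 in the 7 groups, with a bar at each group mean. Psme4 is at 411 CPM or less in all naive, EPL and EpiSC libraries and at 494 CPM or more in all 6 ground-state libraries, and Psmf1 is lowest in naive and highest in EPL cells of both lines.

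The tissue-restricted core subunits were low. Psma8, an alpha subunit known mainly from the testis, had 14.4, 13.1 and 15.7 CPM in ground-state, 24.7, 31.5 and 28.2 CPM in naive and 23.3, 23.4 and 25.2 CPM in EPL cells of D3. In A2 it had 11.6, 11.8 and 13.2 CPM in ground-state, 18.7, 20.4 and 18.4 CPM in naive, 25.5, 25.5 and 25.8 CPM in EPL and 22.1, 24.4 and 17.9 CPM in EpiSC cells. Ground-state libraries were below all others of their line, with changes of 0.81 ± 0.08 in naive (edgeR adjusted p = 4.84e-09), 0.91 ± 0.08 in EPL (edgeR adjusted p = 5.90e-10) and 0.82 ± 0.11 in EpiSC cells (edgeR adjusted p = 7.25e-07). Per length it stood at 14.3 ± 0.98% of its standard counterpart Psma7 in EpiSC and at 7.26 ± 0.71% in ground-state A2 cells (SD, n = 3). Psmb11, the catalytic subunit of the thymus cortex, had 0 to 2 counts summed over the 3 libraries of any group and was not tested.

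The assembly chaperones of the core particle split in a similar manner. Psmg1 and Psmg2 form the pair that starts the alpha ring, and against ground-state cells they moved apart in EpiSC, while against naive and EPL cells of A2 both were lower under TMM scaling. Psmg1 had 44.9, 46.8 and 34.6 CPM in EpiSC, against 66.9, 70.2 and 76.5 CPM in ground-state A2, 73.2, 84.4 and 79.1 CPM in naive A2 and 79.4, 74.8 and 73.8 CPM in A2 EPL cells. The EpiSC libraries were the lowest of all 21, at -0.76 ± 0.11 against ground-state cells (edgeR adjusted p = 2.90e-06) and -0.91 ± 0.11 against naive cells (edgeR adjusted p = 2.50e-07). Psmg2 had 40.9, 43.8 and 36.6 CPM in EpiSC, against 27.7, 30.6 and 28.6 CPM in ground-state A2 cells, and was higher by 0.48 ± 0.10 (edgeR adjusted p = 0.000100). Naive cells had 49.9, 64.3 and 49.6 CPM of Psmg2 in D3 and 42.8, 51.2 and 48 CPM in A2, above every ground-state library, at 0.73 ± 0.07 (edgeR adjusted p = 2.47e-09). EPL cells were higher by 0.60 ± 0.07 (edgeR adjusted p = 4.64e-08). Psmg3, a partner in the other chaperone pair, was higher in naive cells by 0.38 ± 0.09 (edgeR adjusted p = 0.000476), and its partner Psmg4 was lower in EPL than in naive cells by -0.41 ± 0.10 (edgeR adjusted p = 0.00231). All 4 chaperone genes were lower in EpiSC than in naive A2 cells under TMM scaling, and with total-count scaling only Psmg1 of the 4 passed the threshold.

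Between the lines, over ground-state, naive and EPL cells, D3 had 18 members higher and 1 lower than A2 with a median of 0.11, where 20.0% of all genes were higher and 20.7% lower. Taken by stage, D3 had 2 members higher in ground-state, 21 in naive and 6 in EPL cells, where 9.13%, 14.5% and 15.6% of all genes were higher, and naive D3 holds the library with the highest proteasome share. Without that library, 13 members were higher and 2 lower in D3 over the stages. Psmb10 was higher in D3 by 0.73 ± 0.08 (edgeR adjusted p = 2.05e-07), with 1.01 ± 0.14 in naive, 0.75 ± 0.14 in EPL and 0.42 ± 0.15 in ground-state cells, the last not called (edgeR adjusted p = 0.0514). Psmd7, a lid subunit that pairs with the deubiquitinase Psmd14, had 353, 441 and 361 CPM in naive D3, against 227, 250 and 231 CPM in naive A2 cells. In ground-state cells it had 282, 267 and 299 CPM in D3, against 209, 213 and 219 CPM in A2, and in EPL cells 319, 318 and 342 CPM in D3, against 282, 270 and 270 CPM in A2. The lines did not overlap at any stage, and the overall difference was 0.45 ± 0.05 (edgeR adjusted p = 3.74e-08). Psmd1 went the other way, with 339 to 385 CPM in the 9 D3 libraries, against 392 to 453 CPM in the 9 A2 libraries of the same stages, and no overlap (-0.22 ± 0.03, edgeR adjusted p = 8.37e-06).

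The naive change itself was not called different between the lines for any of the 47 members by edgeR, where 3.06% of all genes were called in either direction; 6 members had an unadjusted p below 0.05, and DESeq2 called 0 with 8 at an unadjusted p below 0.05. All 47 differences were above 0, with a median of 0.16, against 50.9% above 0 and a median of 0.01 over all genes. The members were measured in the same libraries and can move together, so these signs are not independent of each other. Without naive D3 replicate 2, 35 of the 47 were above 0 and the median was 0.07. For EPL against ground-state cells, Psmb9 and Psme2 were the 2 members whose change differed between the lines, where 13.3% of all genes were called in either direction.

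Genes that work with the proteasome gave a mixed picture. In the same comparisons with ground-state cells, 39.1% of all genes were higher and 34.1% lower in EpiSC, 31.7% and 31.8% in naive, and 33.1% and 33.2% in EPL cells. Of 16 matched partners and regulators, 2 were higher and 8 lower in EpiSC than in ground-state A2 cells, 6 higher and 4 lower in naive, and 4 higher and 6 lower in EPL than in ground-state cells. Pomp, the chaperone that helps the beta ring mature, was lower in EpiSC by -0.50 ± 0.10 (edgeR adjusted p = 0.000101), and so were the cap's ubiquitin receptor Adrm1 at -0.70 ± 0.07 (edgeR adjusted p = 2.15e-08) and the deubiquitinase Uchl5, which binds Adrm1, at -0.78 ± 0.08 (edgeR adjusted p = 6.36e-09). Ecpas, an adaptor and scaffold of the proteasome, was higher by 0.94 ± 0.11 (edgeR adjusted p = 8.37e-08). Nfe2l1, the transcription factor that raises proteasome genes when activity is short, was lower in naive cells by -0.53 ± 0.06 (edgeR adjusted p = 6.07e-08), in EPL cells by -0.34 ± 0.06 (edgeR adjusted p = 3.13e-05) and in EpiSC by -0.30 ± 0.08 (edgeR adjusted p = 0.00262). Of the 12 genes listed with it, itself included, 5 were higher and 5 lower in naive cells. Of 6 ubiquitin and ubiquitin-activating genes, 1 was higher and 3 lower in EpiSC than in ground-state A2 cells. Of 8 genes of the unfoldase p97 and its cofactors, 1 was higher and 5 lower in naive cells, and 1 higher and 4 lower in EpiSC. EpiSC values in this paragraph use TMM scaling. With total-count scaling the median of all genes against ground-state cells moved from 0.04 to 0.30, and the member Psmb5 from -0.33 to -0.07. EpiSC falls of that size, such as that of Nfe2l1, therefore depend on the scaling.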

How the data were processed

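The deposited table held raw read counts per gene made by the authors, 1 column per library, for 21 libraries of unstranded TruSeq RNA v2. HISAT2, SAMtools, featureCounts and build GRCm38 are named in the submitters' processing notes; versions, settings and the strand setting were not given in the sources used here, so reads of overlapping and antisense genes cannot be told apart. Gene lengths and positions came from GENCODE M21 (39344 of 39396 identifiers matched). Near copies were sought with blastn 2.17.0: 16 members had 1 or more with at least 95% identity over at least 200 bases, such as Gm13835 for Psma3 with 100% identity and 31.6% as many counts. Of the members, 12 shared exonic bases with another gene, at most 14.73%. Promoter windows are RefSeq sequences of GRCm38.p6.

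Counts were analysed in R 4.3.3 with edgeR 4.0.16: filterByExpr with a minimum count of 10, which came to 0.522 CPM in at least 3 libraries, TMM factors, and the quasi-likelihood F test in 1 fit of all 21 libraries with 1 mean per line-and-stage group. Comparisons of stages average A2 and D3, except those with EpiSC, which use A2. Adjusted p-values (Benjamini-Hochberg) are over 16575 genes, with calls below 0.05. DESeq2 1.42.0 was the other tool. The script recovered changes in simulated counts in a test before use. Library totals of 15320599 to 23490527 set the precision, and the intervals of Psmb8 cover counting error only. No pair of libraries agreed within sampling noise (2.91 to 32.1 chi-square per degree of freedom between replicates).

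Every member is accounted for by class. Values in each library are given for the catalytic, immunoproteasome, activator, inhibitor and chaperone genes and for members with the largest called rises and falls of each comparison; single others were named after their values were seen. The members, the pathway lists and the tests were chosen with earlier results of these data known. Alternatives were RLE and total-count scaling, other filters, DESeq2, fits of only the groups compared, each line or stage alone, a replicate block and leaving out each library. The design text calls the samples paired without saying how.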

Additional observations from a re-analysis of the deposited data

Results flagged for a closer look

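The change of Psmb9 between EPL and ground-state cells was larger in D3 than in A2, by 1.76 ± 0.41 on the log2 scale (edgeR adjusted p = 0.00538), which the test of the line difference itself picked out. Over 28 alternative settings it lay between 1.63 and 1.90 and passed the threshold in all 28. Ground-state libraries held only 8, 7 and 5 counts of Psmb9 in D3 and 12, 13 and 13 in A2, and the settings share these low counts.

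The change of Psme2 in the same comparison also differed, by 0.78 ± 0.21 (edgeR adjusted p = 0.0141), with values above 0 in D3 and below 0 in A2. Over 28 alternative settings it lay between 0.70 and 0.88 and passed in all 28. The near copy Psme2b differed by 0.73 ± 0.19 (edgeR adjusted p = 0.0107).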

How the results depend on the processing

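Of 522 counts of called members computed under the alternatives, 499 were within 1.5 times the reported count and 23 moved. With total-count scaling EpiSC had 10 members higher and 14 lower than ground-state A2 cells, 10 higher than naive A2 cells, and 7 higher and 16 lower than A2 EPL cells; Psme1 (0.21) and Psme3 (0.022) against ground-state cells and Psmf1 (0.018) against EPL cells changed sign. EPL cells had 3 members higher than naive cells with RLE size factors and with DESeq2. By line, naive cells had 6 higher in A2 alone and 3 lower in D3 alone, EPL cells had 8 higher than ground-state cells in D3 alone, and 5 lower than naive cells in A2 alone. D3 had 2 members higher than A2 in ground-state cells alone and 6 in EPL cells alone, where Psmb9 (0.80), Psma8 (-0.093) and Psmg1 (-0.014) changed sign. Without a filter 1 member, Psmb10, had a naive change called larger in D3, and with only the groups compared 1 had a lower EPL change. The cause of these shifts was not tested. Leaving out each library in turn gave 13 to 20 higher and 5 to 11 lower for naive against ground-state cells, 10 to 14 and 10 to 15 for EPL against ground-state cells, and 3 to 8 and 13 to 16 for EPL against naive cells. EpiSC had 5 to 6 higher and 29 to 33 lower against ground-state, 6 to 7 and 24 to 32 against naive, and 2 to 5 and 24 to 33 against EPL cells, the 2 without EpiSC replicate 3. D3 against A2 gave 13 to 22 higher and 1 to 2 lower, the 2 without naive D3 replicate 2. The line difference gave 0 to 1 higher and 0 lower for the naive change, the 1 without naive D3 replicate 1, and 2 to 3 and 0 for the EPL change. With a replicate block naive cells had 16 members higher than ground-state cells, EpiSC 31 lower than EPL cells and D3 17 higher than A2, and no other count changed. Same-numbered libraries did not visibly deviate together (5 of 21 correlated best with their own number). A pairing with a small effect could be missed by this check, and what the stated pairing refers to is not known. Depth limits Psmb8, Psmb9 and Psmb11.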
